A study of Mus musculus with 786 samples.

Results

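MPP1 cells are the first multipotent precursors of mouse bone marrow, sorted here as CD48-CD150+CD135-CD34+, and 99 single MPP1 cells from 2 plates were described cell by cell. They were taken from the wells whose label gave a cell count of 1 and in which at least 1000 genes reached an FPKM of 1 (fragment counts scaled by transcript length and by the size of the library). That rule kept 51 of 55 single-cell wells on MPP1 plate 1 and 48 of 68 on MPP1 plate 2, out of 460 single-cell wells on the 7 plates of the series. The comparison group was 50 and 53 haematopoietic stem cells (HSC) chosen by the same rule from HSC plates 1 and 2, sorted as CD48-CD150+CD135-CD34-. All of these cells came from marrow of untreated C57BL6 mice aged 6 to 8 weeks and were amplified by Smart-seq. The labels do not say how many mice gave the cells of a plate, so the plate is the only replicate and p-values measure the spread between plates, which may be technical. The labels name no lineage, Sca-1 or Kit gate. The columns of HSC plate 1 could belong to either of 2 runs of the same wells.

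MPP1 cells stand next to the stem cell at the top of the blood hierarchy. They can form every blood lineage but renew themselves for a shorter time than HSC, and CD34 on the surface is the marker that parts them from HSC in adult mice. Single cells of such populations are known for lineage priming, in which genes of several mature lineages are transcribed at low levels before a cell is committed. Immediate early genes are transcribed within minutes of a stimulus and are also known to respond to tissue handling and sorting.

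A used MPP1 cell held a median of 2535 detected genes on plate 1 (lowest 1040, highest 4287) and 2520.5 on plate 2 (lowest 1004, highest 4076), where detected means an FPKM of at least 1. The medians were 2157.5 and 2594 on HSC plates 1 and 2. The 3 wells just under the limit of 1000 genes held 803, 839 and 879 genes on plate 1 and 613, 762 and 932 on plate 2, and the 3 just above it held 1040, 1056 and 1078 and 1004, 1051 and 1198. Wells labelled with 0 cells were not empty: 6 of 28 on plate 1 and 4 of 13 on plate 2 reached 1000 genes, with medians of 669.5 and 409. Their detection shares therefore stand beside those of the cells as a background. Both MPP1 plates used the same 96 well index sequences, and no 2 columns of the table were identical. Read depth is unknown, so no interval for a level could be given. The exact binomial intervals for shares of cells (Clopper-Pearson, 95%) cover counting error only. An FPKM of 0 may mark a failed estimate and is not read as absence.

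Detection was first read for 5 marker genes, of which Cd34 alone belongs to the sort gate. They were chosen with earlier results of these data known and are no independent check of the sort label. Ctla2a, an inhibitor of cysteine proteases, was detected in 48 of 51 MPP1 cells on plate 1 (94.1%, interval 83.8 to 98.8) and in 47 of 48 on plate 2 (97.9%, 88.9 to 99.9). Its FPKM ran from 0 over a median of 533 to 2284 on plate 1, and from 0 over 425 to 2560 on plate 2. In HSC it was detected in 68% and 75.5% of cells, with medians of 7.24 and 28.7. The ranges of single cells overlapped fully between the cell types, while the plate shares and medians of MPP1 were above those of HSC. Wells with 0 cells also held Ctla2a in 50% and 69.2% of cases on plates 1 and 2 of MPP1 and in 28.6% and 8.33% on those of HSC, and their part in the difference was not tested.

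Cd34 itself, the surface sialomucin that defines the sort, was detected in 36 of 51 cells (70.6%) and 34 of 48 cells (70.8%), against 34% and 56.6% of HSC. The level in MPP1 cells ran from 0 over a median of 10.6 to 291 FPKM on plate 1, and from 0 over 11.9 to 602 on plate 2. Cells sorted as CD34+ thus included 15 and 14 cells without a detected Cd34 transcript. In the deposited table of bulk populations, each 1 library of 1000 cells, Cd34 was at 1786 FPKM in MPP1, the highest of the 18 populations, with MPP4 next at 1226. In bulk samples, fewer cells of a type and less RNA per cell cannot be told apart. Meis1, a homeobox factor of stem and early progenitor cells, was detected in 88.2% and 91.7% of MPP1 cells and in 98% and 96.2% of HSC. Its median FPKM was 151 and 166 in MPP1 and 157 and 240 in HSC.

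Csf3r and Pf4 were the patchy markers. Csf3r, the receptor for granulocyte colony-stimulating factor, was detected in 25 of 51 cells on plate 1 (49%, interval 34.8 to 63.4) and 13 of 48 on plate 2 (27.1%, 15.3 to 41.8), and the 2 intervals overlapped. Its highest values were 274 and 350 FPKM, and the median of the detecting cells was 9.67 and 14.7. HSC shares were 10% and 20.8%, and 1 well labelled with 0 cells on each MPP1 plate held it. Pf4, the platelet chemokine, was detected in 14 of 51 cells (27.5%) and 13 of 48 cells (27.1%), against 12% and 18.9% of HSC and 17.9% and 15.4% of the 0-cell wells on the MPP1 plates. A single cell carried 55.4% of the summed Pf4 value of plate 1 and 67.6% of that of plate 2. The mean over cells was 230 and 138 FPKM with that cell and 104 and 45.7 without it.

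**Figure D1:**
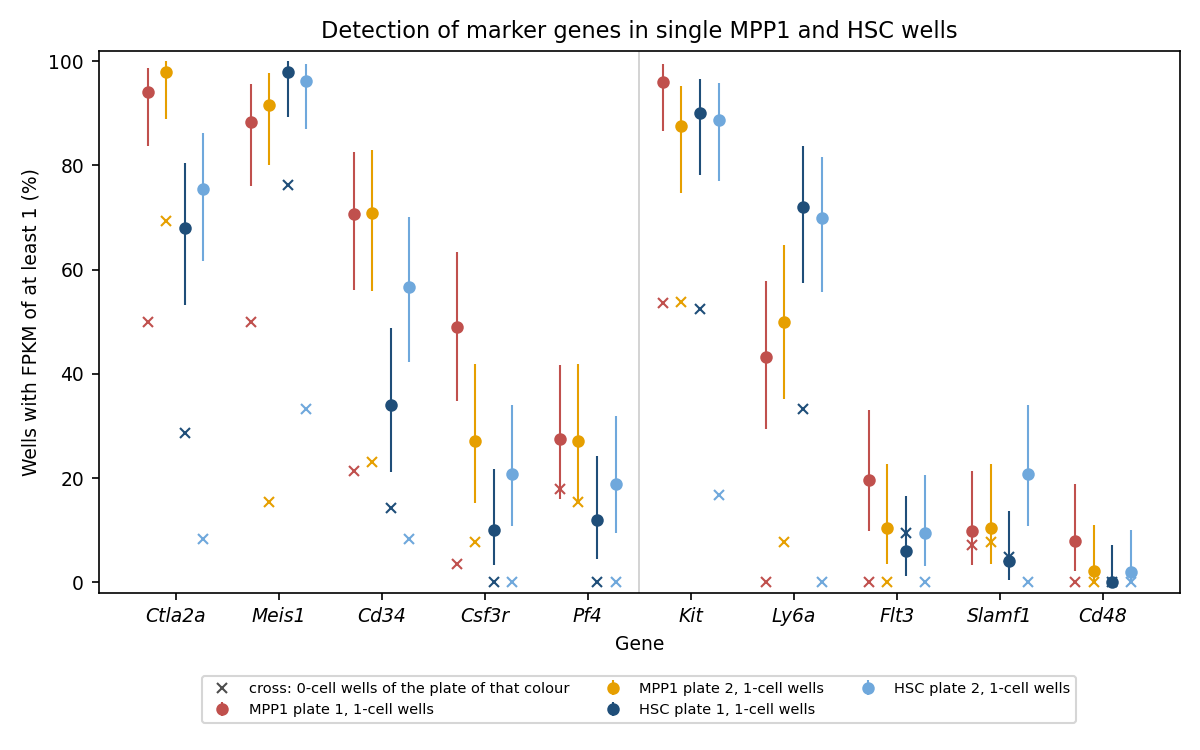
Share of wells (y axis, %) in which 5 marker genes (left) and 5 genes of surface proteins used to sort early blood cells (right) reached FPKM 1. Circles are wells with 1 cell, with exact 95% binomial intervals for counting error, and crosses are wells labelled with 0 cells. Ctla2a reached 94.1% and 97.9% of MPP1 cells and 68% and 75.5% of HSC, while Meis1 and Kit were at 87.5% or more on all 4 plates.

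Other genes of the sort were read next. Kit, the stem cell factor receptor, was detected in 96.1% and 87.5% of MPP1 cells, and Ly6a, which encodes Sca-1, in 43.1% and 50%, against 72% and 69.8% of HSC. Of the proteins the sort selected against, Flt3 (CD135) was detected in 10 of 51 and 5 of 48 cells, and Cd48 in 4 and 1. Slamf1, which encodes the selected CD150, was found in 5 cells on each plate. Transcript detection and the surface gate thus went apart in individual cells for Slamf1, Flt3 and Cd48.

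Most markers of mature blood cells that a marrow sort could carry along were listed at 0. Of the marker lists, 5 of 8 genes for B and plasma cells, 5 of 9 for T and NK cells, 5 of 8 for neutrophils, 6 of 9 for macrophages and 2 of 9 for endothelium and stroma were at 0 in every MPP1 cell of both plates. The background for these counts is that 8959 of all 21664 genes were also at 0. Endothelium and stroma genes were less often at 0, and the highest of their shares was that of Pecam1, 19.6% on plate 1. For 1 gene at 0, 0 of 51 and 0 of 48 cells allow shares of up to 6.98% and 7.40%, which limit cells with a detected transcript and not cells of another type. The genes at 0 included the defining genes Ms4a1, Cd3d, Cd3e and Cd3g. Exceptions were Cd79b, a part of the B cell receptor, in 27.5% and 39.6% of MPP1 cells and 30% and 18.9% of HSC, and Nkg7, a granule membrane protein of killer cells, in 41.2% and 37.5% of MPP1 cells and 8% and 15.1% of HSC. The summed level of the T and NK list ran from 0 to 3283 and 622 FPKM in MPP1 cells and from 0 to 1007 and 632 in HSC, and the highest MPP1 values were those of Nkg7 itself. No other gene of the B or T and NK lists reached a share of 20% on both plates.

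The gene content of MPP1 cells was alike on the 2 plates. At least 1 cell detected 11184 of the 21664 listed genes on plate 1 and 11143 on plate 2. Only 1350 and 1533 genes were found in at least 50% of cells, 1196 of them on both plates, and 16 genes were found in every cell of both plates. Over all 21664 genes the shares of the 2 plates had a Pearson correlation of 0.962, which includes the 9592 genes found in no MPP1 cell. Over the 12072 genes seen on either plate, the median gap was 3.92 percentage points, with a 95th percentile of 15.6. Genes are not independent replicates, and cells of a plate share its preparation.

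Megakaryocyte genes held a common and a rare set. Nfe2, a transcription factor needed for platelet release, was detected in 58.8% and 75% of cells, and Cd9, a tetraspanin of platelets, in 51% and 60.4%. Both are also active in HSC, where their shares were 68% and 69.8%, and 56% and 67.9%. Rarer genes of the list included Itga2b, Gp9 and Vwf. Itga2b, which encodes CD41, was found in 13.7% and 25% of cells, and Vwf in 5.88% and 6.25%. Gp9, a part of the von Willebrand factor receptor, was in 13.7% and 37.5%. Plek, the platelet protein pleckstrin, was detected in 16 of 51 and 23 of 48 MPP1 cells but in 2 of 50 and 8 of 53 HSC, beside 14.3% and 30.8% of the 0-cell wells of MPP1 plates 1 and 2 and 0% of those of the HSC plates. Over the 22 genes of the list the median share was 6.86% and 10.4%, against 1.96% and 2.08% over all genes.

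Erythroid genes were led by a single gene. Car2, carbonic anhydrase 2, was in 94.1% and 97.9% of MPP1 cells with median FPKM of 640 and 877, and in 100% and 98.1% of HSC. No other of the 19 measured erythroid genes reached 20% of cells on both plates. Gata1, the erythroid and megakaryocyte transcription factor, was found in 7 and 8 cells, Hbb-b1, the adult beta globin, in 25.5% and 12.5%, and Tfrc, the transferrin receptor, in 19.6% and 16.7%. The list's median was 1.96% and 4.17%, against 3.57% and 0% in the 0-cell wells of the same plates. With Car2 left out, at least 1 erythroid gene was detected in 68.6% and 58.3% of cells. The same held for 42.9% and 30.8% of the 0-cell wells.

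Among granulocyte-monocyte genes, Plac8 was detected in 74.5% and 56.2% of MPP1 cells and in 28% and 41.5% of HSC. Lyz2, the lysozyme of granulocytes and macrophages, was in 60.8% and 50% of MPP1 cells, and Prtn3, the neutrophil protease proteinase 3, in 49% and 47.9%. All 3 had lower shares in the 0-cell wells of their plates, between 0% and 21.4%. The granule genes Mpo (myeloperoxidase) and Elane (neutrophil elastase), which mark committed progenitors, were detected in at most 1 cell: Mpo was found in 0 of 51 and 1 of 48 cells and Elane in none. The list's median was 1.96% and 2.08%, with 8 of its 22 genes in no MPP1 cell, where 9592 of all 21664 genes were in none.

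Of the 20 lymphoid genes, 3 reached 20% of cells on both MPP1 plates, as did 3841 of all 21664 genes. Ikzf1, the transcription factor Ikaros, was detected in 52.9% and 39.6% of cells, Bcl11a in 31.4% and 50%, and Tcf3, which encodes the E2A factors, in 33.3% and 37.5%. Of the 20 lymphoid genes, 9 were in no MPP1 cell, and of the 10 mast cell and basophil genes 8 were at 0. Over all 21664 genes, 9592 were in no MPP1 cell and 8959 were at 0, so the lymphoid count lies near that of all genes.

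Genes of the cell cycle were found in a part of the cells. Pcna, the DNA polymerase clamp, was in 78.4% and 72.9% of MPP1 cells, and the list of S phase genes had median shares of 29.4% and 34.4%. Genes of G2/M phase had medians of 14.7% and 20.8%. Mki67, the proliferation antigen, was in 37.3% of the cells and 57.1% of the 0-cell wells on plate 1, which leaves that share at background, and in 50% and 46.2% on plate 2. Ube2c, which drives exit from mitosis, was in 23.5% and 22.9% of cells against 0% and 15.4% of the 0-cell wells.

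The spread between cells was read after removing its dependence on the mean. For each of 7126 genes with a mean share of at least 10% over the 4 plates, the SD over cells of log2(FPKM + 1) was taken and the trend of the SD on the mean was subtracted, which gives the excess spread. The 15 genes of highest excess spread on plate 1 all lay above 0 on plate 2, and 13 of them were in its top 10% (712 genes). The 15 genes chosen on plate 2 all lay in the top 10% of plate 1, and 6 genes were among the 15 highest on both. The plate that did not choose the genes is the repeat here, and the choosing plate's own values are a description.

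The widest spread on both MPP1 plates belonged to 2 microRNA genes, and their mature sequences are shown because they name the features behind these values. They are taken from RefSeq (GRCm38.p6, not the mm9 build of the expression files), written 5′ to 3′ with the seed (bases 2 to 8) in capitals. Mir703 lies on the minus strand with its mature form at chr5:98475616-98475636 and Mir1931 on the plus strand at chr10:93162879-93162900.
mmu-miR-703: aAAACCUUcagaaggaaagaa
mmu-miR-1931: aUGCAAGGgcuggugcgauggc
The seeds differ, so the 2 do not belong to 1 seed family. Mir703 was detected in 56.9% of cells on plate 1 and 45.8% on plate 2. Its FPKM ran from 0 to 22417 and 22078, and the detecting cells had medians of 7396 and 4541. Its excess spread was 3.73 and 3.42, rank 1 on both MPP1 plates and also on both HSC plates. Mir1931 was in 23.5% and 22.9% of cells, with excess spreads of 2.01 and 1.85. The RefSeq hairpins are 109 and 119 bases long, and FPKM divides by length, so a few fragments on such short features give a high value. The part of this in their spread was not tested.

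Protein-coding genes of high excess spread on both plates were Cox6a1 and Ndufa4, subunits of the respiratory chain, Kars, the lysine tRNA synthetase, and Rgs1, a regulator of G protein signalling. Cox6a1 had excess spreads of 1.07 and 1.22 and Rgs1 of 0.99 and 1.05. On HSC plates 1 and 2, Cox6a1 ranked 2 and 6, Rgs1 4 and 7, Ndufa4 15 and 473 and Kars 35 and 257. Rgs1 was detected in 92.2% and 89.6% of MPP1 cells with a median of 458 and 385 FPKM, yet some cells lay at 0 and the highest at 3747 and 2904. Of the lineage genes, Pf4 ranked 6 on plate 1 (excess 1.06) and 62 on plate 2 (0.67), with ranks of 1228 and 293 on the HSC plates. Plac8 ranked 15 and 189, with ranks of 95 and 59 on the HSC plates.

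Lists differed in how evenly their genes were found. Ribosomal protein genes were the most even: their median excess spread was -0.75 and -0.91, and 4 and 1 of 20 genes lay above the trend, where all tested genes had a median of 0.01 on each plate. Oxidative phosphorylation genes lay above the trend in 15 of 21 cases on each plate, with medians of 0.27 and 0.29. G2/M genes lay above it in 17 and 19 of 21 cases, with medians of 0.10 and 0.25. Of all 7126 tested genes, 3735 and 3682 lay above it. On HSC plates 1 and 2 the counts were 2 and 1 of 20 ribosomal protein genes. They were 12 and 15 of 21 oxidative phosphorylation genes and 18 and 19 of 21 G2/M genes. Across genes, the excess spread of MPP1 plates 1 and 2 had a Pearson correlation of 0.755, and the MPP1 plates had correlations of 0.741 to 0.776 with the HSC plates.

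**Figure D2:**
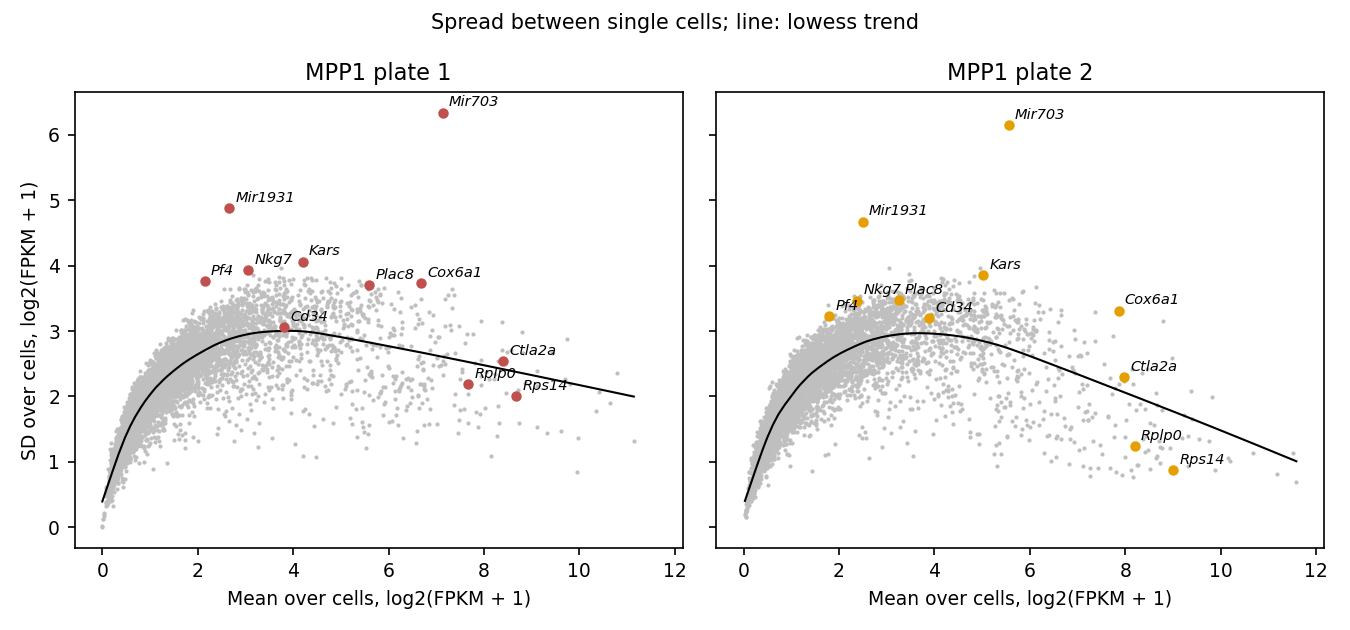
Spread between single MPP1 cells: for each of 7126 genes, the SD over cells (y axis) against the mean over cells (x axis), both of log2(FPKM + 1), with the lowess trend as a line, for plate 1 (51 cells, left) and plate 2 (48 cells, right). Mir703 and Mir1931 stand far above the trend on both plates (excess 3.73 and 3.42, and 2.01 and 1.85), while the ribosomal protein genes Rplp0 and Rps14 lie below it.

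Genes that vary together were sought as Spearman correlations over the cells of a plate, made partial on the number of genes detected in the cell, because deeper cells detect more of every gene. All cells of a plate share its preparation. The 3841 genes found in at least 20% of cells on both plates gave 7374720 pairs, with a median correlation of 0.01 on plate 1 and 0.00 on plate 2. Single pairs did not repeat as a rule: the values of a pair on the 2 plates had a Pearson correlation of 0.0215 over all pairs. The 15 highest pairs of each plate were all histone genes, unnamed genes or near-copies of one another, whose reads can be shared. A narrower search kept pairs on different chromosomes, without histone or unnamed genes and without pairs whose names begin alike. This restriction was chosen after seeing the data. It goes by names, so reads may still be shared: Smarca5 and the pseudogene Vmn2r-ps14 remained, with 0.77 and 0.73. Within it, all 15 highest pairs of plate 1 were above 0 on plate 2 and 13 reached 0.3 there. Of the 15 highest of plate 2, 14 were above 0 on plate 1 and 10 reached 0.3.

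The pairs that stood highest on both plates were mostly of the translation machinery. Rpl41 and Rps19, of the large and small ribosomal subunit, had correlations of 0.75 and 0.78, and 12 of the other pairs among the 15 highest on both plates also held ribosomal protein genes. Ribosomal protein genes have many processed copies in the genome, so reads may be shared among them. The top pair was Ppid, a cyclophilin, and Lamp3, a lysosomal membrane protein, with 0.77 and 0.84. Over the list of 20 ribosomal protein genes the median correlation was 0.42 and 0.35, and 190 and 179 of its 190 pairs lay above 0.

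Cell cycle genes formed the next set. The 14 S phase genes that could be read had median correlations of 0.22 and 0.24, with 87 and 85 of 91 pairs above 0, where 52.6% and 50.8% of all pairs were. Mcm7, a subunit of the replicative helicase, and Uhrf1, which keeps DNA methylation through replication, had 0.42 and 0.60. The 5 G2/M genes had medians of 0.13 and 0.30, with all 10 pairs above 0 on both plates, and the values for HSC were 0.31 and 0.42. Immediate early genes had medians of 0.11 and 0.15 over 136 pairs, of which 107 and 116 were above 0. Fosb, a partner of Jun in AP-1, and the zinc finger factor Klf4 had 0.49 and 0.50.

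Megakaryocyte and stem cell genes had medians near 0. The 7 megakaryocyte genes that could be read had median correlations of 0.00 and -0.01, with 11 and 10 of 21 pairs above 0. The 5 granulocyte-monocyte genes had 0.09 and 0.04, with 7 of 10 pairs above 0 on each plate. The 3 lymphoid genes had -0.02 and 0.18, with 1 and 3 of 3 pairs above 0. Only 1 erythroid gene, Car2, was common enough, so that list gave no value. The 23 stem cell and multipotency genes had 0.02 and 0.01. Within that list, Ly6a and Ifitm1, an interferon-induced membrane protein, had 0.52 and 0.37. Interferon response genes had 0.18 and 0.11, with 19 and 17 of 21 pairs above 0.

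**Figure D3:**
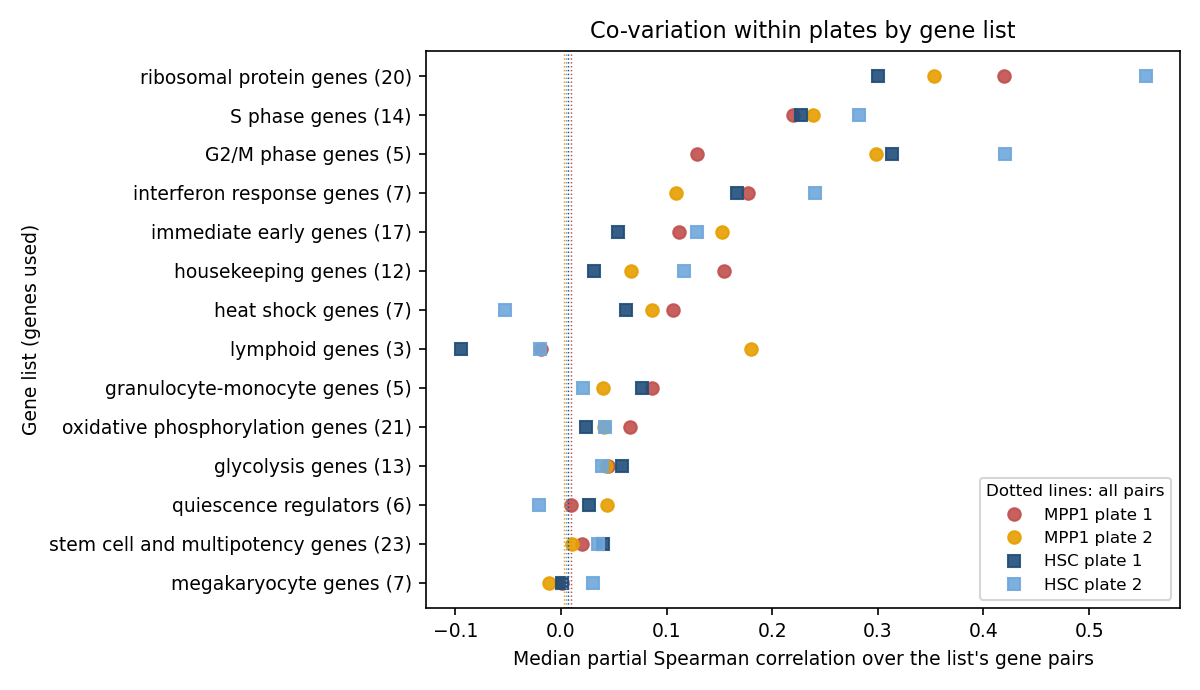
Median partial Spearman correlation (x axis) over the gene pairs of each list (y axis, number of genes used in brackets) on 4 plates. Circles are MPP1 plates, squares HSC plates, and dotted lines the median over all pairs. Ribosomal protein genes (0.42 and 0.35 in MPP1) and S phase genes (0.22 and 0.24) stand to the right, while megakaryocyte and stem cell genes stay near 0.

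Summed over lists, cells with more stem cell gene expression had less of the G2/M program. The partial correlation of the 2 list scores was -0.33 and -0.38 in MPP1 and -0.18 and -0.32 in HSC. The stem cell score went with the score of quiescence regulators, genes such as Cdkn1b that hold cells out of division, at 0.31 and 0.52. S phase and G2/M scores had 0.31 and 0.26. Megakaryocyte and S phase scores had 0.24 and 0.22 in MPP1 and -0.06 and -0.19 in HSC, a difference that was not tested. Further relations with 1 sign on both MPP1 plates included megakaryocyte with ribosomal scores (0.36 and 0.24) and stem cell with S phase scores (-0.28 and -0.18). G2/M with immediate early scores (-0.22 and -0.17) and S phase with interferon scores (-0.11 and -0.35) were others. These are examples and not all such relations, and a shared sign on 2 plates can arise by chance. Other relations did not repeat. The stem cell and immediate early scores had 0.50 on plate 1 and 0.02 on plate 2, and the G2/M and ribosomal scores -0.51 and 0.22. The 35 relations between lists were computed over 51 and 48 cells and are descriptions.

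Each marker's closest partners were then read over the 2 plates. Ctla2a had the closest of the 5: Skil, a repressor of TGF-beta signalling (0.43 and 0.47), Sik1, a salt-inducible kinase (0.48 and 0.42), the zinc finger factor Klf6 (0.39 and 0.44) and Pde4b, a cAMP phosphodiesterase (0.33 and 0.49). In HSC the values were 0.24 and 0.10 for Skil, 0.13 and 0.22 for Sik1, 0.04 and 0.04 for Klf6 and -0.01 and 0.36 for Pde4b. The partners were chosen for their values on the MPP1 plates, so the HSC values are no test of a difference between the cell types. Of 3585 named genes, 8.84% had a best partner at least as close as that of Ctla2a, so the tie of Ctla2a was above the median of 0.38 but under the 95th percentile of 0.48. For Pf4, Meis1, Cd34 and Csf3r that share was 55.6%, 61.7%, 63.5% and 80.3%, and their partners are no closer than those of most genes.

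Ctla2a and its partners were broad genes in MPP1. Skil ran from 0 over a median of 63.7 to 788 FPKM on plate 1, and from 0 over 42.9 to 663 on plate 2, while its medians in HSC were 1.98 and 1.46. Klf6 ran from 1.12 over 205 to 1047 and from 0 over 179 to 2344. Sik1 was lower, with medians of 2.46 and 7.92. Of the 17 immediate early genes, 11 were positively correlated with Ctla2a on both plates (64.7%), against 31.7% of all genes. The same count for Csf3r was 12 of 17 (70.6%), against 26.5% of all genes. Other lists had shares of similar size: for ribosomal protein genes the count was 12 of 20 (60%) with each of Ctla2a and Csf3r, and for granulocyte-monocyte genes it was 3 of 5 (60%) with Ctla2a and 3 of 4 (75%) with Csf3r. Wells with 0 cells held Skil in 50% and 53.8%, Sik1 in 42.9% and 46.2% and Klf6 in 71.4% and 69.2% of cases, and their part in these relations was not tested.

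**Figure D4:**
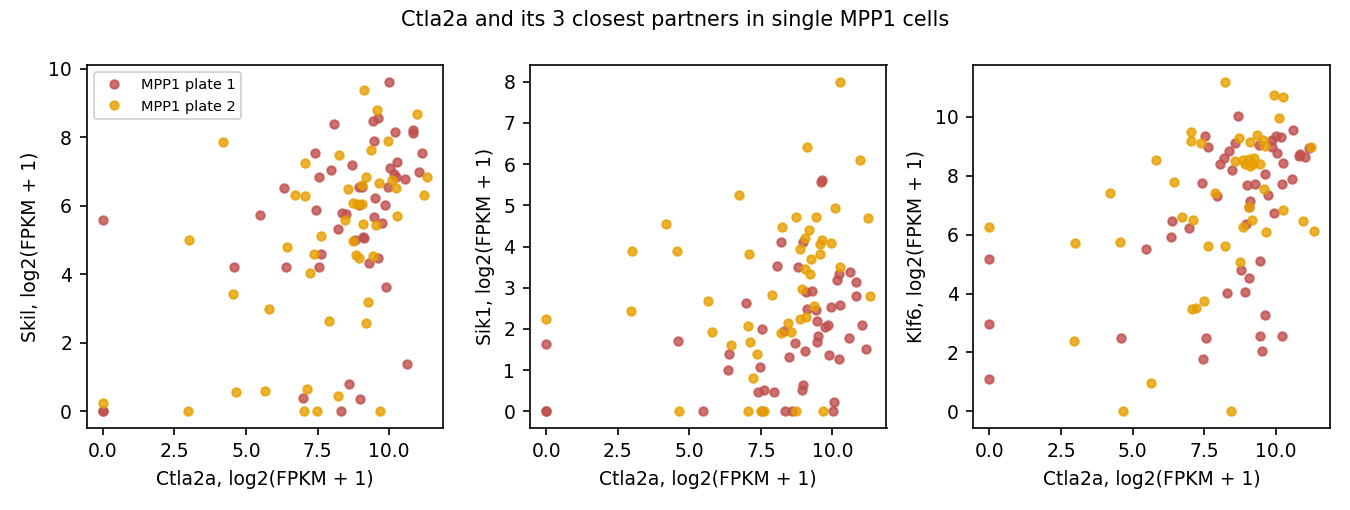
Ctla2a (x axis) against Skil, Sik1 and Klf6 (y axes) in single MPP1 cells, all as log2(FPKM + 1), with plate 1 in red and plate 2 in orange. Cells with more Ctla2a tended to have more of each partner (partial Spearman 0.43 and 0.47 for Skil, 0.48 and 0.42 for Sik1, 0.39 and 0.44 for Klf6), with wide scatter.

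The bases before the start site were searched for the AP-1 element TGANTCA, the site of Fos and Jun dimers, and the cAMP element TGACGTCA, since Fosb, Jun and other members of the immediate early list are AP-1 subunits. Both strands of the 250 bases upstream of each RefSeq start site (GRCm38.p6) were read. The AP-1 letters were found in 6.75% of 32851 such windows and the cAMP letters in 1.55%. Both start-site windows of Ctla2a held the same AP-1 match, 129 and 188 bases before the 2 starts, while 0 of 23 windows of immediate early genes held one. The cAMP letters stood in 2 of those 23, in Btg2, an antiproliferative gene, and Dusp1, a phosphatase of MAP kinases. The matches are shown with 30 bases to each side, 5′ to 3′ on the gene's strand, which is minus for all 3, and with the element in capitals, at chr13:60936718-60936784, chr1:134079284-134079351 and chr17:26508578-26508645.
Ctla2a: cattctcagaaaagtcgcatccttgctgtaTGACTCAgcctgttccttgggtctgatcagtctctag
Btg2: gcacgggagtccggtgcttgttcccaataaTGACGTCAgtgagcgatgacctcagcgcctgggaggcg
Dusp1: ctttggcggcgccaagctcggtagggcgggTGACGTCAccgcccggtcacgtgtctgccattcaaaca
A match is a description of the letters and not a shown site of binding.

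Several megakaryocyte genes met in a few single cells. The cell with the highest Pf4 value of plate 1, 6492 FPKM, also held Plek at 1172, Cd9 at 781, Gp9 at 296, Gata1 at 272, Itga2b at 31.2 and Vwf at 19.7. With 8 of the 22 list genes it had the highest number on its plate, where the median cell had 4, although its 2598 detected genes were close to the plate's median. The next Pf4 cell of plate 1, at 1502 FPKM, held none of Plek, Cd9, Gata1 or Gp9.

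On plate 2 the highest Pf4 cell, at 4486 FPKM, held 12 list genes, again the plate's highest number, against a median of 5. It had Cd9 at 344, Plek at 311, Gata1 at 123, Mmrn1 (multimerin) at 109, Gp1ba at 72.4, Vwf at 65.0 and Treml1 at 35.9, and with 4076 genes it was also the cell with the most genes on its plate. It further held the mitotic genes Mki67 at 131 and Ccnb2 at 123. The next cell, at 1192, had Gata1 at 436, Cd9 at 373, Plek at 349 and Ccnb2 at 867. In 3 of these 4 cells Cd34 was at 0, and it was 1.64 FPKM in the other. Each is a single cell, so these are values of cells and not of a group.

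The cells with the most Flt3 and Csf3r were not those with the most Pf4. The 2 plate 1 cells with the most Flt3, at 74.5 and 45.0 FPKM, held 1 and 7 megakaryocyte genes and no Pf4. The second of them, with Gp9 at 32.4 and Mmrn1 at 31.4, had the second highest number of megakaryocyte genes on its plate. The 2 plate 2 cells with the most Flt3, at 908 and 785 FPKM, held 1 and 3 megakaryocyte genes and no Pf4. The cell with the most Csf3r on plate 2, at 350, was mixed: it held Itga2b at 182, Cd9 at 493 and Gata1 at 209. Its 2683 genes were near the median, its well is labelled with 1 cell, and no doublet caller was run.

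**Figure D5:**
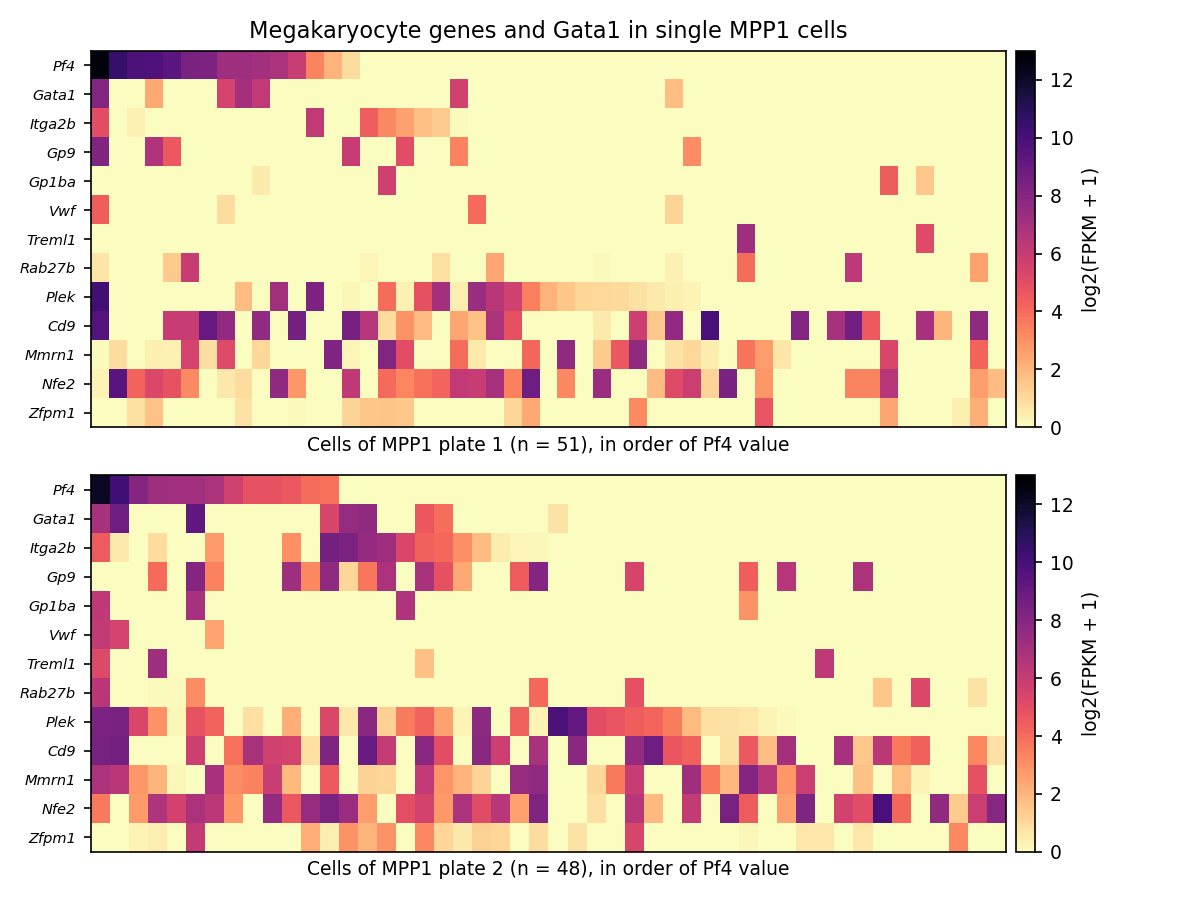
Values of 13 megakaryocyte and erythroid genes (rows) in each MPP1 cell (columns, in order of the Pf4 value), as log2(FPKM + 1) from 0 (pale) to 13 (dark), for plate 1 (51 cells, top) and plate 2 (48 cells, bottom). The leftmost cell of each plate, at 6492 and 4486 FPKM of Pf4, is dark in several rows, while Nfe2 and Cd9 are spread over cells with and without Pf4.

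Genes of several lineages were found in the same cell. At least 1 gene of each of the megakaryocyte, erythroid, granulocyte-monocyte and lymphoid lists was detected in 42 of 51 cells on plate 1 (82.4%, interval 69.1 to 91.6) and 35 of 48 on plate 2 (72.9%, 58.2 to 84.7). In HSC the shares were 72% and 71.7%, and in the 0-cell wells of the MPP1 plates 17.9% and 15.4%. The mean of the plates was 77.6 ± 6.67% in MPP1 and 71.8 ± 0.213% in HSC (SD, n = 2 plates each), which an exact permutation test could not part (two-sided p = 0.3333, the smallest that 2 against 2 plates allow). This count rests on common genes such as Car2 and Nfe2.

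With only the 74 of 83 list genes found in under 50% of cells on both MPP1 plates, a restriction chosen after seeing the data and so given without a test, all 4 lists met in 22 of 51 and 15 of 48 MPP1 cells and in 20% and 20.8% of HSC. The product of the lists' separate shares gives 19.8 and 13.3 cells for the MPP1 plates. Pairs of lists were read in the same way. At least 2 megakaryocyte and 2 granulocyte-monocyte genes were found together in 10 cells on each plate, where the product of the shares gives 12.5 and 10.5 cells. Megakaryocyte and erythroid genes met in 7 and 11 cells, where it gives 8.20 and 6.23. Granulocyte-monocyte and lymphoid genes met in 16 and 5 cells, against 13.1 and 6.42. Megakaryocyte and lymphoid genes met in 8 and 9 cells, against 9.92 and 6.71. Erythroid genes met granulocyte-monocyte genes in 11 and 7 cells, against 10.8 and 5.96, and lymphoid genes in 10 and 6 cells, against 8.57 and 3.79. Of the 6 pairs of lists, the 2 of erythroid with granulocyte-monocyte or lymphoid genes thus lay above the product on both plates, 1 lay below it on both and 3 lay on different sides. Pf4 and Csf3r were found together in 5 and 4 cells, against 6.86 and 3.52. The products are not adjusted for the number of genes detected in a cell, and its part in these counts was not tested. In the 0-cell wells of MPP1 plates 1 and 2, erythroid and lymphoid genes met in 1 and 1 wells, against 0.214 and 0.154. Erythroid and granulocyte-monocyte genes met there in 0 and 1 wells, against 0 and 0.154.

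MPP1 were last set against HSC in the share of cells that detect a gene, over 2 plates each. Nr4a1, an immediate early nuclear receptor, was detected in 86.3% and 79.2% of MPP1 cells and in 32% and 30.2% of HSC. Tnfaip3, an inhibitor of NF-kappaB, was in 35.3% and 37.5% against 6% and 1.89%. Txnip, which restrains glucose uptake and proliferation, was in 56.9% and 70.8% against 92% and 94.3%. For these 3 genes, named after their values were seen, the shares of the 2 cell types did not overlap between plates. With 2 plates each such a separation can arise by chance, and how many of all tested genes had it was not counted. By limma with Benjamini-Hochberg adjustment over 7126 genes, 0 passed an adjusted p of 0.05 (0% called). The smallest adjusted p by limma was 0.126, for Nr4a1 and Tnfaip3, and it was 0.131 for Txnip. The mean share of Nr4a1 was 82.7 ± 5.03% against 31.1 ± 1.28% (SD, n = 2 plates each). At an unadjusted p under 0.05, 536 genes (7.52%) were counted, 328 higher and 208 lower in MPP1.

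Of the 5 markers, 0 passed, with limma adjusted p of 0.131 for Ctla2a, 0.493 for Csf3r, 0.525 for Cd34, 0.582 for Meis1 and 0.684 for Pf4. Immediate early genes held 8 of 19 tested members at an unadjusted p under 0.05, all higher, and 0 after adjustment. Their median difference was 14.6 percentage points, against 1.25 over all genes. Fosb was in 84.3% and 95.8% of MPP1 cells against 60% and 47.2% of HSC, and Jund, another AP-1 subunit, in 74.5% and 85.4% against 46% and 28.3%. The 0-cell wells differed in the same direction: the list's median share in them was 25% and 30.8% for MPP1 and 4.76% and 0% for HSC, and their part in the difference was not tested. Interferon response genes had lower shares in MPP1 in 17 of 17 tested members, 9 of them at an unadjusted p under 0.05 and 0 after adjustment, with a median of -15.6 points. S phase genes had higher mean shares in 20 of 20, with a median of 7.69 points and 1 at an unadjusted p under 0.05, where 4010 of all 7126 genes were higher. The list's median share was 20% and 34.0% on HSC plates 1 and 2, so that HSC plate 2 lay between the MPP1 plates (29.4% and 34.4%).

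The count of called genes rests on all 4 plates. Without HSC plate 1, HSC plate 2, MPP1 plate 1 or MPP1 plate 2 it was 40, 147, 51 or 82, where the lone plate is assumed to vary like the pair of the other group. For the excess spread, limma called 0 of 7126 genes between MPP1 and HSC (0% called), with 389 at an unadjusted p under 0.05 and a smallest adjusted p of 0.111 for Ly6a and Hmgb1. Ly6a had an excess spread of 0.51 and 0.41 in MPP1 and of 1.29 and 1.22 in HSC. Hmgb1, a chromatin protein found in every cell of the 4 plates, had -0.77 and -0.80 against -0.09 and 0.06. For both genes the plates of the cell types did not overlap, and neither passed the test. How many of the other tested genes were separated in this way was not counted.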

How the data were processed

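Single-cell values are FPKM as the authors deposited them, 1 value per gene and well, with 96 wells per plate. The submitters' processing notes list TopHat 1.3.3, Cufflinks 1.2.1 and build mm9, with no further settings. Cells of the 2 MPP1 and 2 HSC plates of 1 table were used. Detection shares (FPKM of at least 1) were compared on the arcsine square root scale with limma 3.58.1 in R 4.3.3 (trend, empirical Bayes), and excess spread on log2(FPKM + 1), pseudocount 1, minus a lowess trend (fraction 0.3), in genes with a mean share of at least 10%. Both were tested on simulated data. Correlations, exact tests and intervals used Python 3.11.15 with scipy 1.17.1. Read depth is unknown. Alternatives were a replicate block, other filters, thresholds, scales and each plate left out. Named were the markers, the sort genes, up to 4 genes per list by mean MPP1 share, the 15 genes and pairs of highest spread and correlation, 5 partners per marker and any called gene. Other genes were chosen after their values were seen: Plek, Itga2b, Gp9, Vwf, Gp1ba, Treml1, Mpo, Elane, Ccnb2, Ifitm1, Mcm7, Uhrf1, Klf4, Jund, Pecam1, Nr4a1, Tnfaip3, Btg2, Dusp1 and Hmgb1. The members and the 24 lists were chosen with earlier results of these data known. Plates from bled mice and HSC plate 3, which stand in other tables, were not used here, and of the bulk table Cd34 alone is given. Some genes that the naming rule covers are not reported here.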

Additional observations from a re-analysis of the deposited data

How the results depend on the processing

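Replicate numbers did not pair the plates: the deviations of same-numbered plates had a correlation of 0.0049 over 7126 genes. With a replicate block, limma called 61 genes for the detection share and 15 for the excess spread, against 0 for each without it. Other settings gave 7 genes for the share at FPKM 5, 38 on the logit scale and 40 to 147 with 1 plate left out, and for the spread 1 to 11 with 1 plate left out. With no filter on low shares or with cells of at least 2000 genes both counts stayed 0. Of 9 alternatives for the share, Ctla2a passed in 6, Nr4a1, Tnfaip3 and Txnip in 6 each, Cd34, Csf3r and Meis1 in 1 each and Pf4 in 0.

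The mean of the 2 plates' median correlations was 0.0148 for stem cell, -0.00489 for megakaryocyte, 0.229 for S phase, 0.214 for G2/M and 0.132 for immediate early genes. Without adjustment for genes detected it was 0.0518, 0.0534 and 0.3329 for the first 3. With genes in at least 40% of cells it was 0.0257, -0.116 and 0.292, and 0.169 for immediate early genes, while G2/M and interferon genes were then too few to give a value. With cells of at least 2000 genes it was 0.00524 for megakaryocyte, 0.245 for S phase, 0.356 for G2/M and 0.0726 for immediate early genes. By Pearson correlation it was -0.0144 for megakaryocyte, 0.214 for S phase and 0.376 for G2/M genes. Without the highest Pf4 cell of each plate, added after seeing the data, megakaryocyte genes had -0.0166. The causes were not tested.

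The share of cells with all 4 lists (77.6%) and with 2 megakaryocyte and 2 granulocyte-monocyte genes (76.7%) was 66.6% and 66.5% at FPKM 5, and the latter 82.8% with cells of at least 2000 genes. With genes under 50% of cells they were 37.2% and 20.2%. With 1 plate left out they ran from 72.9% to 82.4% and from 72.9% to 80.4%. At the main settings no difference passed a test, so whether called differences keep their sign could not be asked. Some values that no test called changed sign, as the megakaryocyte correlation above did. The correlation of granulocyte-monocyte genes went from 0.0627 to -0.0876 with genes in at least 40% of cells. The MPP1 against HSC difference in the excess spread of Ctla2a went from -0.152 to 0.1504 with cells of at least 2000 genes.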
